A study of Mus musculus with 4 samples.

Results

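The genes described here are 54 genes of the bone morphogenetic protein (BMP) and transforming growth factor beta (TGF beta) pathways, taken by symbol from the 55487 genes of a count table made from the skull vault of mouse embryos. They comprise 13 ligands of the BMP and GDF class, 6 ligands of the TGF beta and activin class, 12 receptors (with the decoy receptor Bambi), 11 antagonists and modulators (with the protease Bmp1), 4 latent TGF beta binding proteins and 8 SMADs. RNA was sequenced in 2 libraries of frontal bone and in 2 libraries that each hold parietal together with interparietal bone, all from E14.5 embryos (embryonic age in days). The labels give no strain, sex, genotype, litter or number of embryos. Since separate embryos within a group are not stated, a p-value here speaks for the variation among these 4 libraries alone, and that variation may be technical. The series belongs to a study of citrate-carrying extracellular vesicles in biomineralization, and its transcriptome part compares 2 regions of the calvaria.

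BMP and TGF beta ligands are secreted dimers that bring type I and type II serine/threonine kinase receptors together on the cell surface. The type I receptor then phosphorylates receptor-regulated SMADs, those numbered 1, 5 and 9 for BMP signals and 2 and 3 for TGF beta and activin signals, which enter the nucleus with Smad4. Antagonists such as noggin and chordin bind the ligands outside the cell, and latent TGF beta binding proteins hold TGF beta in the matrix until it is released. In the skull vault these pathways are known for the commitment of osteoprogenitors, for suture patency and for signals between dura mater, bone and skin.

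Total counts lay between 24069177 and 35555013 per library. Levels are CPM (counts relative to the library's total, scaled to 1e+06) after TMM scaling, which evens out composition between libraries, and a count of 3 corresponds to between 0.0851 and 0.123 CPM. Of the genes that define osteoblasts, Col1a1 (966 to 1501 CPM), Ibsp (40.6 to 92.3 CPM), Runx2 (10.7 to 16.3 CPM) and Sp7 (9.93 to 12.9 CPM) were present in every library, Dmp1 stayed under 1 CPM, and Mepe had 0 counts in all 4. The libraries also held other tissues of the head. The 11 markers of forebrain and cortex summed to 501 and 512 CPM in the frontal libraries, against 62.4 and 59.0 CPM in the parietal-interparietal libraries, and all 11 were called higher. The 10 general neuron markers summed to 852 and 886 CPM in frontal and 895 and 902 CPM in parietal-interparietal libraries, with 2 called higher and 3 lower. The 8 choroid plexus markers summed to 897 and 945 CPM in frontal libraries and 133 and 137 CPM in parietal-interparietal libraries, with 3 called higher and 0 lower. Skeletal muscle markers (12 genes) summed to 1847 and 1758 CPM in frontal and 2410 and 2401 CPM in parietal-interparietal libraries, with 9 called lower and 0 higher. Meningeal markers (14 genes) summed to 990 and 1088 CPM in frontal and 1220 and 1239 CPM in parietal-interparietal libraries, with 5 called lower and 0 higher. Of 8 sensory ganglion markers 7 were called lower, as were 6 of 11 midbrain and anterior hindbrain markers, 5 of 8 red cell markers and 3 of 7 Schwann lineage markers, with 0 called higher in these 4 lists. No marker of these lists found in the table was at 0 in all libraries. Of 9 tested osteoblast markers, Ibsp was called higher and Col1a1 lower. In such bulk samples, fewer cells of a type and less RNA per cell cannot be told apart.

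Of the 54 genes, 53 passed the filter on low counts and were tested with edgeR's quasi-likelihood test on the whole table, a gene being called where its Benjamini-Hochberg adjusted p was under 0.05. In frontal libraries 4 were called higher (Gdf5, Inhbb, Acvr2a and Tgfbr1) and 9 lower (Bmp2, Bmp4, Bmp6, Bmp8a, Mstn, Tgfb3, Tgfbr2, Tgfbr3 and Fstl1), and 40 were not called. Over all 20947 genes tested 12.7% were called, 6.25% higher and 6.44% lower, so the 7.55% of members called higher lay near the background and the 16.98% called lower lay above it. The median log2 fold change, frontal minus parietal-interparietal, was −0.12 over the 53 members and 0.01 over all genes tested. Both frontal libraries lay below both parietal-interparietal libraries for 25 of the 53 members and above them for 9. Over all genes these shares were 28.4% below and 28.9% above. The remaining gene, Fstl3, which encodes a follistatin-like inhibitor of activins and myostatin, had 6 and 8 counts in frontal, against 4 and 4 in parietal-interparietal libraries, and was not tested.

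The calls differed in how many of the alternative analyses kept them. Mstn, Tgfbr3 and Fstl1 were called in all 12 alternative analyses. The other 10 calls were each lost in at least 1 of them, and none changed sign where it was tested. Bmp8a passed the filter in 8 of the 12, and in DESeq2, among these, it got no adjusted p. Without parietal-interparietal library 1, 0 members were called higher and 4 lower (Bmp2, Mstn, Tgfbr3 and Fstl1). Without parietal-interparietal library 2, 1 was called higher (Inhbb) and 3 lower (Mstn, Tgfbr3 and Fstl1), the same 3 as with the parietal-interparietal pair summed to 1 sample. Leaving out either frontal library raised the number of calls among members and over all genes alike. Leaving out either parietal-interparietal library lowered both numbers. Such a fit takes its spread from the pair left whole, and the frontal pair was the more variable one.

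**Figure D1:**
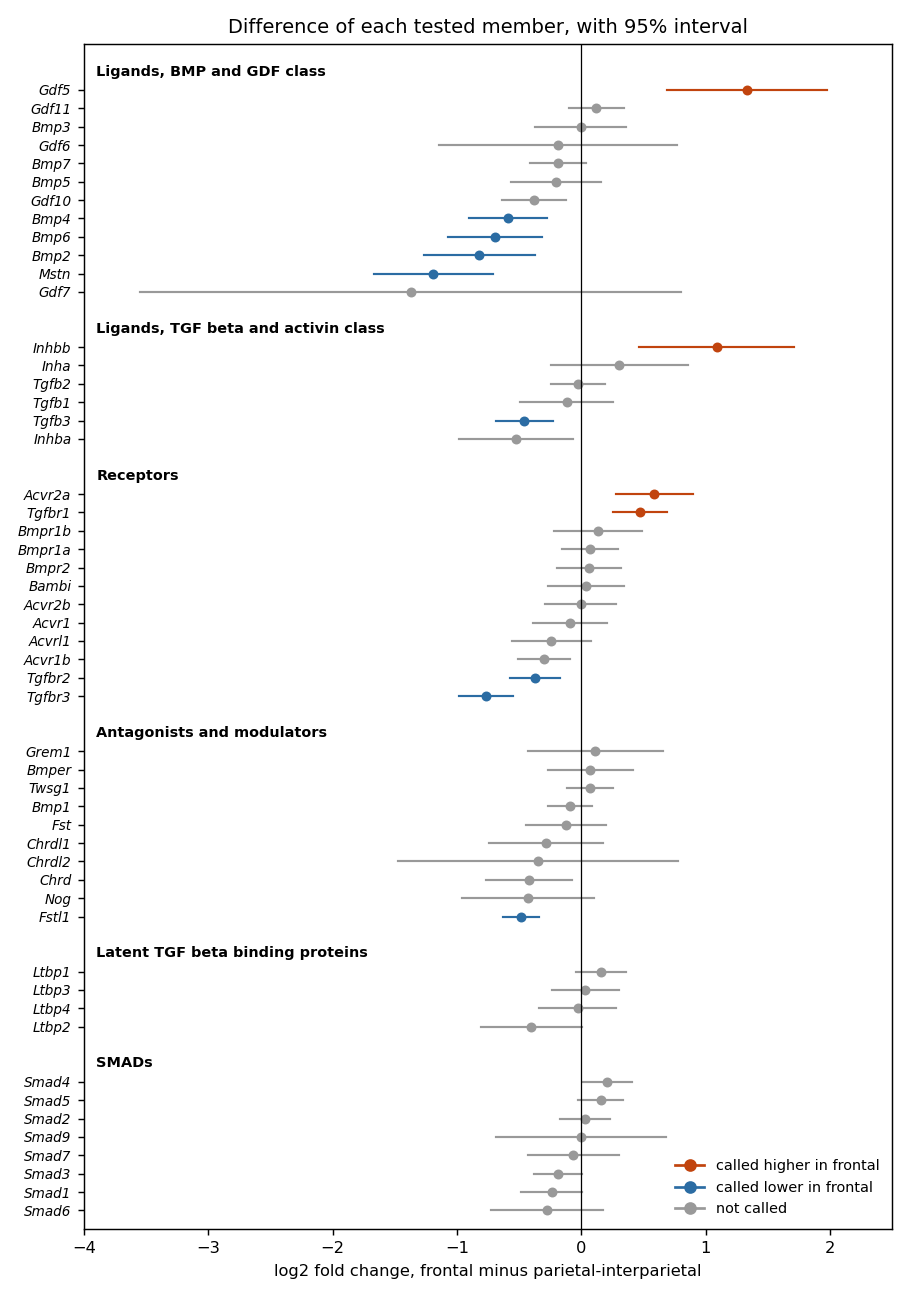
Log2 fold change of the tested members with its 95% interval, frontal minus parietal-interparietal (points right of 0 are higher in frontal; n = 2 libraries each), ordered by role and coloured by call. The called genes sit among the ligands and receptors, with Fstl1 the one called antagonist and no called latent TGF beta binding protein or SMAD; Bmp8a, at 0 counts in both frontal libraries, is not drawn.

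Among the BMP ligands proper, 4 of those measured were called lower in frontal libraries, and the most abundant one was not called. Bmp4, a ligand of cranial mesenchyme and ectoderm (ENSMUSG00000021835, chromosome 14, 46383520 to 46390669), was at 13.02 and 11.2 CPM in frontal libraries, against 18.1 and 18.4 CPM in parietal-interparietal libraries. The groups did not overlap, and the log2 fold change was −0.59 ± 0.14 (SE; edgeR adjusted p = 0.021). Its close relative Bmp2, the ligand best known for inducing bone (ENSMUSG00000027358, chromosome 2, 133552159 to 133562885), was at 5.38 and 6.35 CPM in frontal and 9.03 and 11.7 CPM in parietal-interparietal libraries. Both frontal values were the lower ones (−0.82 ± 0.20, edgeR adjusted p = 0.0238). Bmp6, of the subfamily of Bmp5 and Bmp7 (ENSMUSG00000039004, chromosome 13, 38345107 to 38500302), was at 6.88 and 6.86 CPM in frontal and 10.4 and 11.8 CPM in parietal-interparietal libraries. Its frontal values were nearly equal and lay under both others (−0.69 ± 0.17, edgeR adjusted p = 0.0245). Bmp6 shares 224 exon bases with Txndc5 on the other strand, and Txndc5 was at 172 and 168 CPM in frontal and 180 and 181 CPM in parietal-interparietal libraries (not called). Without a stated strand setting, reads of the shared bases cannot be assigned to either gene.

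Bmp8a, a ligand known best from the testis, had 0 counts in both frontal libraries and 12 and 10 counts in parietal-interparietal libraries. Against a floor of 3 counts over the frontal group it was 9.10-fold lower in frontal libraries (log2 −3.19). This figure takes the parietal-interparietal counts as exact and is not a lower bound. It also uses the counts as deposited, and most counts from 1 to 20 were even numbers in every library. Bmp8a was called lower (edgeR adjusted p = 0.0266), and the 95% interval of its log2 fold change ran from −10.2 to −3.07. This call was lost without frontal library 1 and on summing the parietal-interparietal pair. DESeq2 gave Bmp8a no adjusted p, and the gene was not tested in 4 other alternatives. Reads of Bmp8a may be split with its near-identical copy Bmp8b, at 0.695 and 0.964 CPM in frontal and 1.02 and 1.80 CPM in parietal-interparietal libraries (not called).

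Bmp7, a ligand of surface ectoderm, kidney and eye development, had the highest level of the BMP and GDF class per kilobase of exon. It was at 52.7 and 45.5 CPM in frontal and 55.6 and 56.5 CPM in parietal-interparietal libraries, a log2 difference of −0.19 (95% interval −0.42 to 0.03), and was not called. Bmp5 was at 10.6 and 9.27 CPM in frontal and 10.7 and 12.1 CPM in parietal-interparietal libraries, with the frontal values below the others and no call. Bmp3, a BMP that restrains osteoblasts, was at 9.03 and 10.4 CPM in frontal and 9.77 and 9.83 CPM in parietal-interparietal libraries, so that the frontal values enclosed the other pair.

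The starts of Bmp4 and Bmp6, which were both called lower and have a sequence in the RefSeq table, are given from 250 bases before to 50 bases after the annotated start (GRCm38.p6). Capitals mark the letters CAGAC (or GTCTG, the same letters on the other strand), the core that SMAD proteins bind, and GGCGCC, a GC-rich element bound by the BMP-regulated SMADs. Bmp4 lies at chr14:46390620-46390919 on the minus strand and Bmp6 at chr13:38345466-38345765 on the plus strand. RefSeq places this start of Bmp6 further downstream, so its window lies wholly inside the gene as given above, which begins at 38345107.
Bmp4: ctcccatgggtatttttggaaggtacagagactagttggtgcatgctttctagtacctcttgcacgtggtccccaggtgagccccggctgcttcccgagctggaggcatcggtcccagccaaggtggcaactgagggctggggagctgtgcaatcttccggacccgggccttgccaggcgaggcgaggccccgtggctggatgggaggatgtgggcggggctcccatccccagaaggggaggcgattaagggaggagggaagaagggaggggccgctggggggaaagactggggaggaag
Bmp6: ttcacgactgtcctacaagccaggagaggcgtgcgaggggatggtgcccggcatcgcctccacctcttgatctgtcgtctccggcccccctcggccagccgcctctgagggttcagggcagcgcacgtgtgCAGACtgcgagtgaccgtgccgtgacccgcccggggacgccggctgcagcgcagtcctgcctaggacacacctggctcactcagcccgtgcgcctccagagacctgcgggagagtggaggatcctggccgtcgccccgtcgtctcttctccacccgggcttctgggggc
The Bmp4 window held neither motif and the Bmp6 window 1 CAGAC. Of all 32851 promoter windows of this length, 49.6% held CAGAC and 11.9% held GGCGCC on either strand.

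Of the GDF ligands, Gdf5 was called higher and Mstn lower. Gdf5, a ligand of forming joints and cartilage (ENSMUSG00000038259, chromosome 2, 155941023 to 155945367), was at 5.77 and 4.31 CPM in frontal libraries, against 2.04 and 1.95 CPM in parietal-interparietal libraries. It was 2.52-fold higher in frontal libraries (log2 fold change 1.33 ± 0.29, edgeR adjusted p = 0.0144), the largest rise of any member. Of its exon bases 40.3% are shared with Gm15557 on the other strand, a gene with no more than 0.110 CPM in any library. In the same libraries 2 of 8 cartilage markers were called lower and 0 higher, and their sum was 485 and 471 CPM in frontal and 606 and 587 CPM in parietal-interparietal libraries. The part of cartilage in the Gdf5 difference was not tested.

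Mstn, which encodes myostatin, the inhibitor of muscle growth (ENSMUSG00000026100, chromosome 1, 53061640 to 53068079), was at 3.26 and 3.77 CPM in frontal and 8.17 and 7.95 CPM in parietal-interparietal libraries. With the groups well apart it was 2.29-fold lower (log2 fold change −1.19 ± 0.22, edgeR adjusted p = 0.00616). Of 12 skeletal muscle markers 12 lay below in both frontal libraries, 9 of them called, and their part in the myostatin difference was not tested. Gdf10, also called BMP3B, was at 19.2 and 20.02 CPM in frontal and 25.6 and 25.5 CPM in parietal-interparietal libraries. Its log2 difference of −0.38 ± 0.12 just missed the threshold (edgeR adjusted p = 0.0564). Gdf11, which patterns the trunk, was at 42.4 and 39.5 CPM in frontal and 38.4 and 37.0 CPM in parietal-interparietal libraries and was not called. Gdf6 and Gdf7 lay under 3 CPM in every library, without a call.

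**Figure D2:**
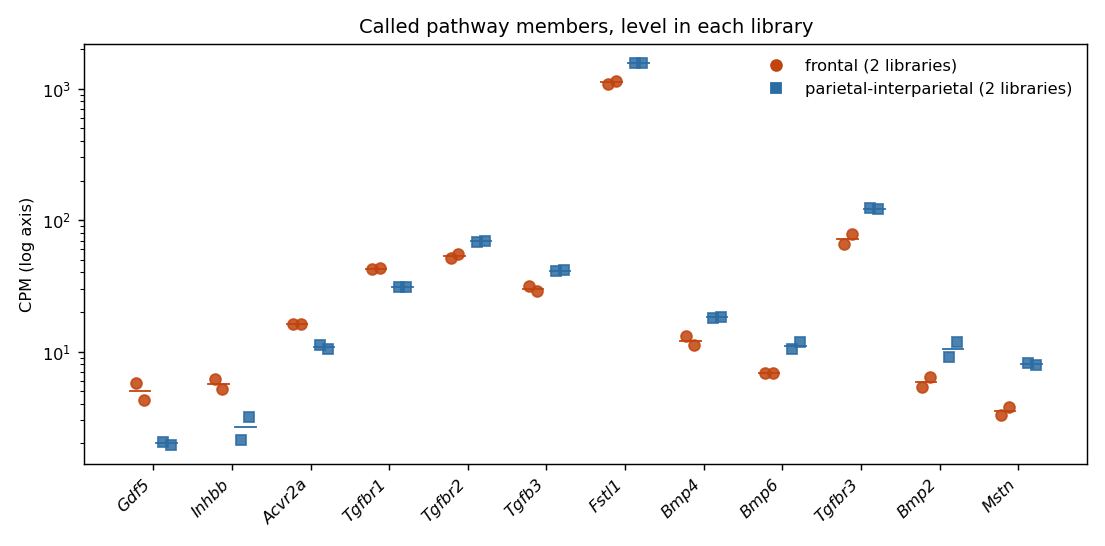
CPM of 12 called members in each library (log axis; frontal left of parietal-interparietal for each gene, lines at the group means), ordered from the highest to the lowest log2 fold change. The 4 genes at the left are higher in both frontal libraries and the 8 at the right lower in both; Bmp8a, at 0 in frontal libraries, is not drawn.

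Of the TGF beta ligands only Tgfb3 was called. Tgfb3, which is needed for fusion of the palate (ENSMUSG00000021253, chromosome 12, 86056745 to 86079041), was at 31.5 and 28.7 CPM in frontal and 41.2 and 41.4 CPM in parietal-interparietal libraries. Both frontal values were lower, by 1.37-fold (log2 fold change −0.46 ± 0.10, edgeR adjusted p = 0.0168). Tgfb2, a ligand of the dura mater and sutures and the highest of this class per kilobase on average over the 4 libraries, was at 59.0 and 66.4 CPM in frontal and 66.0 and 61.9 CPM in parietal-interparietal libraries. The groups overlapped, and the interval of its log2 difference ran from −0.24 to 0.19. Per kilobase, Tgfb3 stood to Tgfb2 at 0.914 and 0.74 in frontal and 1.07 and 1.15 in parietal-interparietal libraries. Tgfb1, abundant in platelets and matrix of bone, was at 9.69 and 8.34 CPM in frontal and 9.77 and 9.79 CPM in parietal-interparietal libraries, again without a call.

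Of the activin and inhibin subunits Inhbb was called. This gene, which encodes the beta B subunit (ENSMUSG00000037035, chromosome 1, 119415465 to 119422248), was at 6.18 and 5.19 CPM in frontal and 2.13 and 3.20 CPM in parietal-interparietal libraries. It was 2.12-fold higher in frontal libraries (log2 fold change 1.09 ± 0.28, edgeR adjusted p = 0.0307). Inhba, for the beta A subunit, was at 6.01 and 8.96 CPM in frontal and 10.6 and 11.0 CPM in parietal-interparietal libraries, with both frontal values below the others and no call (edgeR adjusted p = 0.13). Inha, for the alpha subunit that makes inhibins, was at 13.8 and 7.66 CPM in frontal and 8.95 and 8.32 CPM in parietal-interparietal libraries, so that the frontal pair spanned the other. Forebrain markers were higher in the same frontal libraries, and their part in the Inhbb difference was not tested.

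The receptors named for BMP ligands (Bmpr1a, Bmpr1b and Bmpr2) were not called. Bmpr1a, the main type I BMP receptor of mesenchyme, was at 64.1 and 75.2 CPM in frontal and 64.6 and 68.4 CPM in parietal-interparietal libraries, with a log2 difference of 0.07 (95% interval −0.16 to 0.29). Bmpr2, the type II BMP receptor, was at 65.0 and 83.4 CPM in frontal and 71.4 and 71.3 CPM in parietal-interparietal libraries, with a log2 difference of 0.06 (95% interval −0.20 to 0.32). The frontal libraries differed more from each other than the group means did, and equal levels are not shown. Bmpr1b, a type I receptor of cartilage, lay between 11.2 and 13.9 CPM over all 4 libraries, and Acvr1, the type I receptor ALK2, between 17.2 and 20.7 CPM, with overlapping groups for both. Bambi, a pseudoreceptor without a kinase domain, lay between 13.4 and 14.4 CPM. Acvrl1, the endothelial type I receptor ALK1, was at 23.4 and 18.1 CPM in frontal and 23.7 and 25.4 CPM in parietal-interparietal libraries.

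The TGF beta receptors were called in opposite directions. Tgfbr1, the type I receptor (ENSMUSG00000007613, chromosome 4, 47353222 to 47414931), was at 42.4 and 43.1 CPM in frontal libraries and 30.9 and 30.8 CPM in parietal-interparietal libraries. It was 1.39-fold higher in frontal libraries (log2 fold change 0.47 ± 0.10, edgeR adjusted p = 0.0116), with each pair tight. Tgfbr2, the type II receptor that binds the ligand first (ENSMUSG00000032440, chromosome 9, 116084293 to 116175360), was at 51.2 and 55.1 CPM in frontal and 68.4 and 69.3 CPM in parietal-interparietal libraries. It was 1.29-fold lower (−0.37 ± 0.09, edgeR adjusted p = 0.0243). Tgfbr3, the co-receptor betaglycan that presents TGF beta2 and inhibins (ENSMUSG00000029287, chromosome 5, 107106570 to 107289629), was at 66.1 and 78.0 CPM in frontal and 125 and 121 CPM in parietal-interparietal libraries. It was 1.70-fold lower (−0.77 ± 0.10, edgeR adjusted p = 0.000918), with the frontal values far below the others.

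A ratio of 2 genes within a library does not depend on how libraries are scaled. The ratio of Tgfbr1 to Tgfbr2, in CPM per kilobase of exon, was 1.04 and 0.98 in frontal libraries and 0.565 and 0.556 in parietal-interparietal libraries. That of Tgfbr1 to Tgfbr3 was 0.642 and 0.553 in frontal and 0.248 and 0.256 in parietal-interparietal libraries. The pairs were chosen after the values were seen and no test was made. Meningeal and muscle markers, higher in parietal-interparietal libraries, and forebrain markers, higher in frontal libraries, moved with these receptors, and their part was not tested.

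The starts of the receptor pair called in opposite directions are given in the same form, with the same motifs in capitals. Tgfbr1 lies at chr4:47352972-47353271 on the plus strand (the first of its 2 RefSeq starts) and Tgfbr2 at chr9:116175314-116175613 on the minus strand.
Tgfbr1: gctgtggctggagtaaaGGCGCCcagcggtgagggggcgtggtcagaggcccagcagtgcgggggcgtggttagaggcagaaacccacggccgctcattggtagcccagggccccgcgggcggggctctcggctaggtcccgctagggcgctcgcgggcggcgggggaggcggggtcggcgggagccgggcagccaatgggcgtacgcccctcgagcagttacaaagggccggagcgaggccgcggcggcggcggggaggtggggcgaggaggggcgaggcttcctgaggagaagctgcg
Tgfbr2: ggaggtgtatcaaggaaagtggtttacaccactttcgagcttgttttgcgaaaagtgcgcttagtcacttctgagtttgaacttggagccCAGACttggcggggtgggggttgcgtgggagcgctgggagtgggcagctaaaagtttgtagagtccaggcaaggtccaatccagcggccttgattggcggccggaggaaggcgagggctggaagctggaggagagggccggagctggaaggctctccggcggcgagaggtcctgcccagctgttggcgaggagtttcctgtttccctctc
The Tgfbr1 window held 1 GGCGCC and no CAGAC, and the Tgfbr2 window 1 CAGAC and no GGCGCC. The window of the second Tgfbr1 start, not shown, held 1 CAGAC and no GGCGCC, as that of Tgfbr2 did. These matches describe the letters of the windows only.

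Of the activin receptors, Acvr2a was called. This type II receptor, which also serves BMP and GDF ligands (ENSMUSG00000052155, chromosome 2, 48814109 to 48903269) was at 16.3 and 16.3 CPM in frontal and 11.2 and 10.5 CPM in parietal-interparietal libraries. Both frontal values lay above the others (log2 fold change 0.59 ± 0.14, edgeR adjusted p = 0.0216). It shares 446 exon bases with Orc4 on the other strand, a gene at 11.6 and 15.5 CPM in frontal and 10.6 and 12.1 CPM in parietal-interparietal libraries (not called). The second type II activin receptor, Acvr2b, lay between 15.9 and 16.7 CPM in all 4 libraries. The ratio of Acvr2a to Acvr2b per kilobase was 0.694 and 0.688 in frontal and 0.464 and 0.453 in parietal-interparietal libraries. Acvr1b, the type I activin receptor ALK4, was at 38.9 and 38.5 CPM in frontal and 46.7 and 48.5 CPM in parietal-interparietal libraries, with both frontal values below the others and no call (−0.30 ± 0.09, edgeR adjusted p = 0.0661).

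**Figure D3:**
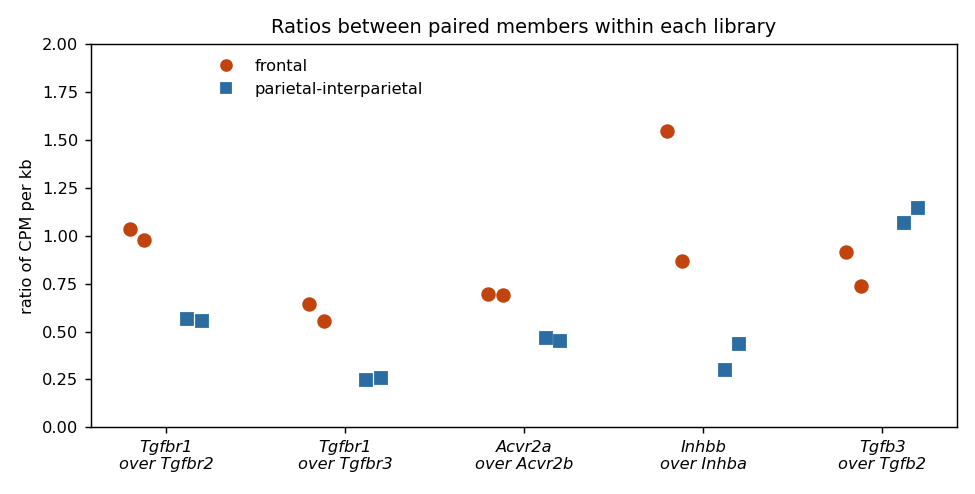
Ratio of CPM per kilobase of exon between 2 members within each library (frontal left of parietal-interparietal). Tgfbr1 over Tgfbr2 is 1.04 and 0.98 in frontal and 0.565 and 0.556 in parietal-interparietal libraries. For the 5 pairs drawn the groups do not overlap. They were chosen after the values were seen, and the overlapping ratio of Bmp2 and Bmp4 to noggin and chordin is not drawn. Bmp4 over Bmp7, also not drawn, is 0.442 and 0.439 in frontal and 0.581 and 0.583 in parietal-interparietal libraries.

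Among 10 tested antagonists and modulators Fstl1 was the one called. Fstl1, a secreted follistatin-like glycoprotein reported in mouse lung to bind BMP4 (ENSMUSG00000022816, chromosome 16, 37776873 to 37836514), had the highest level per kilobase of all 54 genes. It was at 1095 and 1139 CPM in frontal and 1562 and 1569 CPM in parietal-interparietal libraries, 1.40-fold lower in frontal (log2 fold change −0.49 ± 0.06, edgeR adjusted p = 0.00105). Noggin (Nog), which blocks BMP2, BMP4 and GDF5, was at 3.58 and 4.28 CPM in frontal and 5.52 and 5.12 CPM in parietal-interparietal libraries. Its log2 difference was −0.43 with a 95% interval from −0.96 to 0.10, without a call. Chordin (Chrd) was at 8.68 and 9.44 CPM in frontal and 11.8 and 12.5 CPM in parietal-interparietal libraries. The frontal values lay below the others and the difference of −0.42 ± 0.16 was not called (edgeR adjusted p = 0.108). Summed per kilobase, Bmp2 and Bmp4 stood to noggin and chordin at 2.09 and 1.67 in frontal and 2.06 and 2.29 in parietal-interparietal libraries, with overlapping groups.

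Gremlin (Grem1) was at 5.17 and 8.11 CPM in frontal and 5.97 and 6.37 CPM in parietal-interparietal libraries. Follistatin (Fst), which binds activins, was at 14.9 and 17.98 CPM in frontal and 16.8 and 19.1 CPM in parietal-interparietal libraries. Neither was called, and both pairs overlapped. The chordin-like genes Chrdl1 and Chrdl2, the BMP-binding regulator Bmper and Twsg1, which works with chordin, were not called either. Bmp1, a metalloprotease that cleaves chordin and procollagens and no BMP ligand despite its name, was at 154 and 144 CPM in frontal and 158 and 161 CPM in parietal-interparietal libraries without a call.

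Of 4 latent TGF beta binding proteins 0 were called by edgeR or DESeq2 on all 4 libraries, with 0 at an unadjusted p under 0.05. Calls in this class arose only in fits that left out a frontal library. Ltbp4, whose mean per kilobase over the 4 libraries (6.55) was close to that of Ltbp1 (6.42), was at 48.2 and 35.7 CPM in frontal and 45.5 and 40.1 CPM in parietal-interparietal libraries (95% interval of the log2 difference −0.34 to 0.28). Ltbp1, which carries latent TGF beta to fibrillin fibres, was at 74.0 and 70.7 CPM in frontal and 66.9 and 63.0 CPM in parietal-interparietal libraries. Its frontal values lay above the others, without a call. Ltbp3 lay between 34.3 and 42.8 CPM. Ltbp2, the one member that does not bind latent TGF beta, was at 6.29 and 6.64 CPM in frontal and 8.71 and 8.39 CPM in parietal-interparietal libraries.

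Of 8 SMADs 0 were called by edgeR or DESeq2 on all 4 libraries, with 1 at an unadjusted p under 0.05. The 8 log2 fold changes lay between −0.28 and 0.21. SMADs were called only in fits that left out a frontal library. Smad5, which carries BMP signals, was at 125 and 133 CPM in frontal and 117 and 115 CPM in parietal-interparietal libraries (0.15 ± 0.08, edgeR adjusted p = 0.26). Smad1, which carries the same signals, was at 28.7 and 32.8 CPM in frontal and 37.4 and 35.3 CPM in parietal-interparietal libraries (−0.24 ± 0.11, edgeR adjusted p = 0.194). Their differences ran in opposite directions with neither called. Smad4, the common partner whose mean level per kilobase was close to that of Smad5, was at 65.4 and 67.9 CPM in frontal and 56.6 and 58.7 CPM in parietal-interparietal libraries. Its log2 difference of 0.21 (95% interval 0.01 to 0.41) was not called after adjustment (edgeR adjusted p = 0.163). Smad2 and Smad3, the TGF beta and activin SMADs, were between 53.4 and 55.6 CPM and between 70.9 and 84.5 CPM. The inhibitory SMADs are induced by the pathway that they then restrain. Smad6 was at 7.74 and 6.21 CPM in frontal and 7.48 and 9.39 CPM in parietal-interparietal libraries, and Smad7 at 11.98 and 9.81 CPM in frontal and 10.9 and 11.9 CPM in parietal-interparietal libraries. Both overlapped between the groups. Smad9 varied more within the groups than between them, at 3.75 and 5.81 CPM in frontal and 3.64 and 5.96 CPM in parietal-interparietal libraries.

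**Figure D4:**
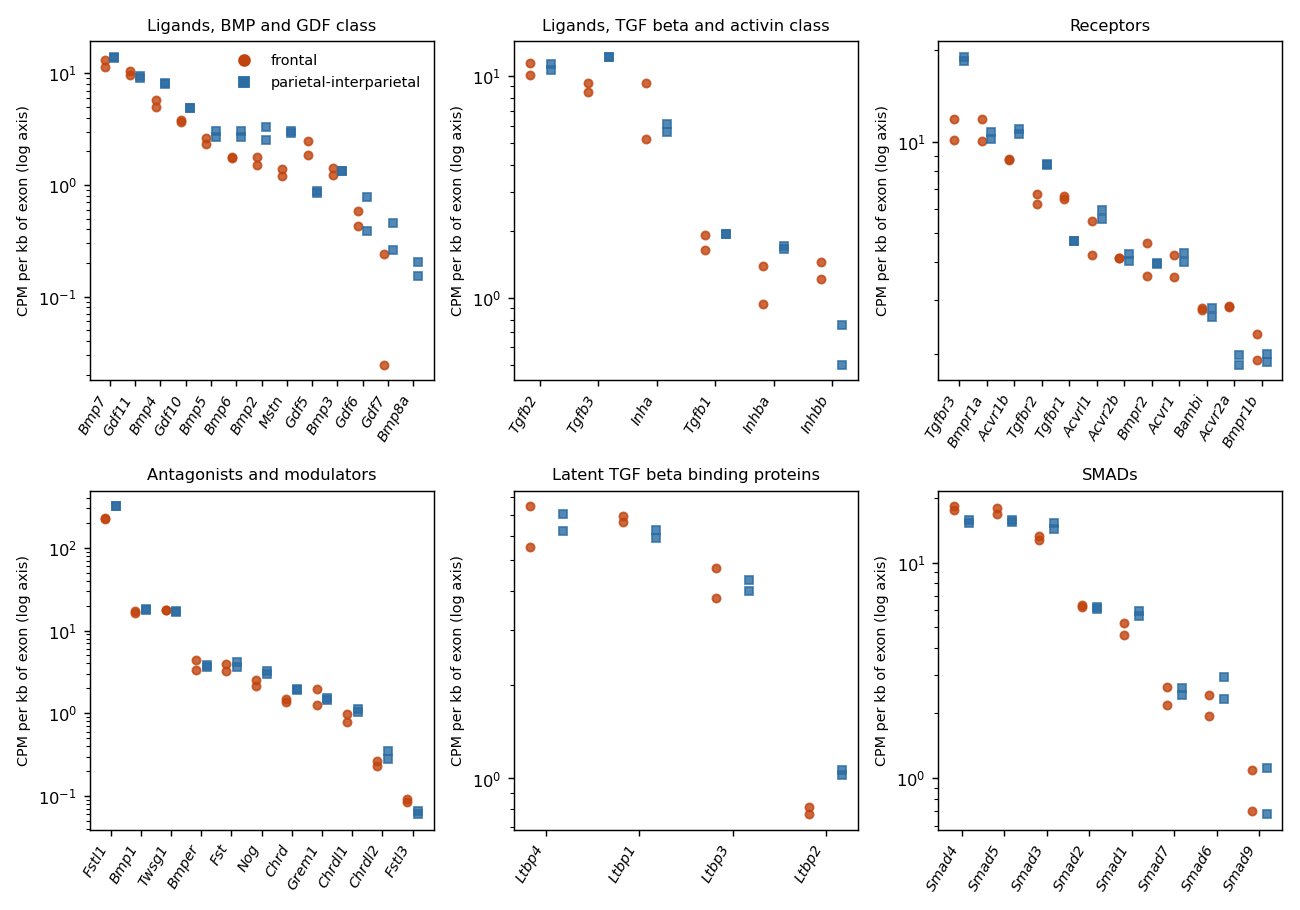
CPM per kilobase of exon of all 54 members in each library by role (log axes that differ between panels; frontal left of parietal-interparietal; values of 0 are not drawn). Fstl1 stands at 223 and 232 in frontal and 318 and 319 in parietal-interparietal libraries, far above the other antagonists.

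The abundance of the members, compared per kilobase of exon, spread widely. Over the 4 libraries Fstl1 averaged 273 CPM per kilobase, Bmp1 and Twsg1 17.4 and 17.3, Smad4 and Smad5 16.8 and 16.5, and Tgfbr3 14.9. Among ligands Bmp7 averaged 13.1 CPM per kilobase, Tgfb2 10.9, Tgfb3 10.6, Gdf11 9.68 and Bmp4 6.75. Bmp2 (2.29) and Bmp6 (2.30) were nearly level, and Bmp8a (0.0892) and Fstl3 (0.0763) were the lowest of the 54. Summed over the BMP and GDF class, the ligands came to 44.3 and 41.2 CPM per kilobase in frontal and 50.8 and 51.5 in parietal-interparietal libraries. The 8 SMADs came to 64.0 and 66.0 CPM per kilobase in frontal and 62.9 and 65.1 in parietal-interparietal libraries.

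Other genes of the pathway were taken from lists of related ligands, receptors, matrix regulators and targets, chosen with earlier results of these data known. Of those tested, 4.60% were called higher and 21.8% lower, against 6.25% and 6.44% over all genes tested. Of 87 such genes tested, 4 were called higher and 19 lower, and 7 of these 23 kept their call in all 12 alternatives (Hfe2, Fstl5, Id4, Hey1, Msx1, Junb and Col1a1). Of 3 tested ligands 0 were called by edgeR or DESeq2, with 0 at an unadjusted p under 0.05. Among 7 receptors and co-receptors, Hfe2, which encodes hemojuvelin, a BMP co-receptor of muscle and liver, was at 15.1 and 19.1 CPM in frontal and 36.6 and 35.0 CPM in parietal-interparietal libraries (−1.06 ± 0.13, edgeR adjusted p = 0.000816). Rgmb, a related BMP co-receptor of neurons, was at 41.8 and 41.5 CPM in frontal and 59.3 and 61.1 CPM in parietal-interparietal libraries. Both were called lower, and the call of Rgmb was lost without either parietal-interparietal library.

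Of 19 further extracellular regulators, 1 was called higher and 5 lower. The higher gene, Fstl5, of the follistatin-like family, was at 6.74 and 10.5 CPM in frontal and 1.68 and 2.32 CPM in parietal-interparietal libraries (log2 fold change 2.11 ± 0.29). The lower genes were Bgn and Fmod, proteoglycans that bind TGF beta, Pcolce, which enhances the protease encoded by Bmp1, the BMP antagonist Nbl1, and Kcp, a chordin-like protein. Bgn was at 364 and 390 CPM in frontal and 521 and 518 CPM in parietal-interparietal libraries, and Fmod was at 38.0 and 34.6 CPM in frontal and 56.3 and 54.03 CPM in parietal-interparietal libraries. Without parietal-interparietal library 1, 0 of these 5 were called, and without library 2 the list held 1 lower call. Of 12 genes that store or activate TGF beta, Fbn1 and Fbn2, the fibrillins that anchor its latent form, and the integrin subunit Itgb1 were called lower, and these 3 calls were lost without either parietal-interparietal library. Of 19 intracellular regulators of SMADs, 0 were called by edgeR with TMM scaling or by DESeq2 on all 4 libraries, with 3 at an unadjusted p under 0.05. With no scaling beyond the total count 1 was called lower, and calls also arose with a frontal library left out.

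Target genes were listed for each branch, and the difference between the lists was not tested. Of 16 TGF beta target genes 8 were called lower (50%, against 6.44% of all genes tested) and 0 higher, with a median log2 fold change of −0.36. Junb, an AP-1 factor, was at 10.9 and 9.50 CPM in frontal and 20.97 and 20.2 CPM in parietal-interparietal libraries (−1.01 ± 0.14). Tgfbi, a matrix protein named for its induction by TGF beta, was at 123 and 141 CPM in frontal and 202 and 190 CPM in parietal-interparietal libraries (−0.57 ± 0.09). Col1a1 was at 993 and 966 CPM in frontal and 1488 and 1501 CPM in parietal-interparietal libraries. Ccn1, Fn1, Col3a1, Scx and Cdkn1a were the others called lower, while Pmepa1, Skil and Ccn2 were among those not called. Leaving out either frontal library gave 10 lower calls in this list. Leaving out a parietal-interparietal library gave 2 (the first) and 4 (the second). Several of these genes encode matrix of connective tissue. In the same frontal libraries 5 of 14 meningeal and 9 of 12 skeletal muscle markers were called lower, and their part in these differences was not tested.

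Of 15 BMP target genes 3 were called higher (20%, against 6.25% of all genes tested) and 1 lower (6.67%, against 6.44%), with a median of 0.17. These counts were 5 higher and 2 lower without frontal library 1, and 6 higher and 2 lower without frontal library 2. Id4, an inhibitor of basic helix-loop-helix factors that neural progenitors also express, was at 37.9 and 44.4 CPM in frontal and 18.4 and 17.2 CPM in parietal-interparietal libraries (1.21 ± 0.12). Hey1, also a Notch target, was at 20.2 and 17.6 CPM in frontal and 7.68 and 9.90 CPM in parietal-interparietal libraries (1.10 ± 0.17). Msx1 and Msx2, homeobox factors downstream of BMP signals in the skull vault, went opposite ways. Msx1 was at 33.5 and 37.2 CPM in frontal and 22.0 and 20.8 CPM in parietal-interparietal libraries (0.73 ± 0.11), and Msx2 was at 11.7 and 15.9 CPM in frontal and 21.05 and 23.5 CPM in parietal-interparietal libraries (−0.69 ± 0.16). The call of Msx2 was lost without parietal-interparietal library 2. The direct targets Id1, Id2 and Id3 were not called, at 99.3 to 115 CPM, 79.2 to 87.6 CPM and 93.5 to 110 CPM over the 4 libraries. Forebrain markers were higher in frontal libraries in 11 of 11 cases, and their part in the Id4 and Hey1 differences was not tested. Of 9 neural progenitor and radial glia markers, 2 were called higher and 1 lower. These 9 summed to 1218 and 1242 CPM in frontal and 1199 and 1172 CPM in parietal-interparietal libraries.

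**Figure D5:**
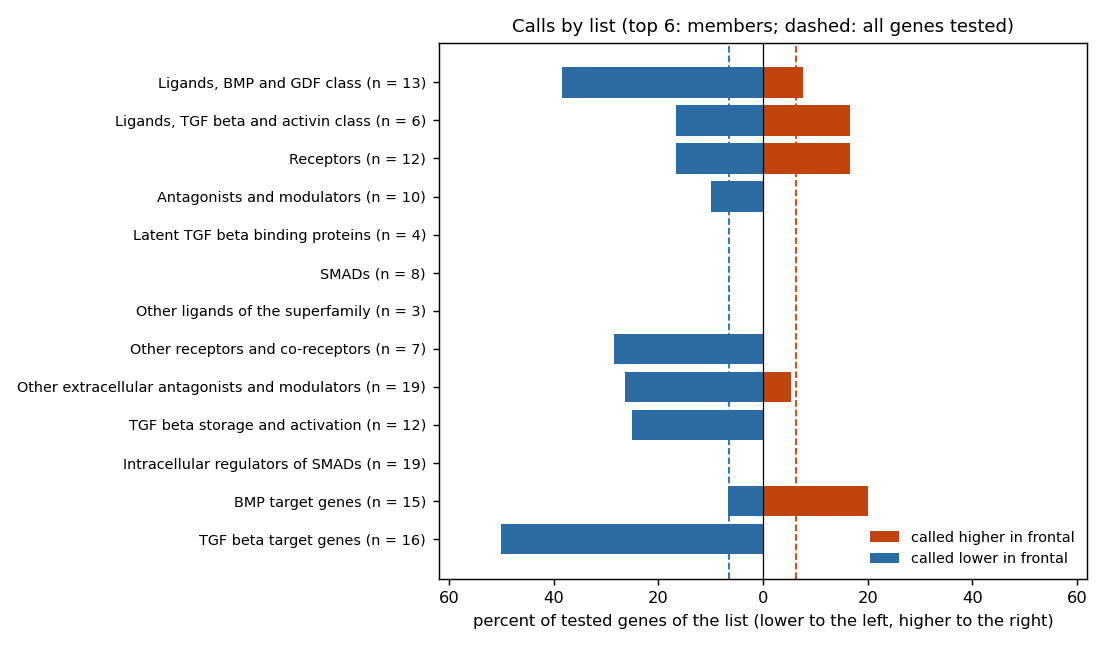
Percent of the tested genes of each member class and pathway list (marker lists not drawn) called higher (right) or lower (left) in frontal libraries, with dashed lines at the shares over all genes tested (6.25% and 6.44%). Of these lists, the longest bar to the left is that of the TGF beta target genes, 8 of 16, and the intracellular regulators, SMADs, latent TGF beta binding proteins and other ligands have no bar.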

How the data were processed

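Raw gene counts deposited by the authors for 4 libraries (whole numbers, not normalized) were used. Per the submitters' processing notes reads went through featureCounts 2.0.1, HISAT2 2.1.0 and Trim Galore 0.6.7 (listed without order), with build GRCm38. For the annotation release and strand setting, the sources used here say nothing. Symbols, gene positions (1-based) and merged exon lengths came from GENCODE M21 (GRCm38), which matched 55227 of 55487 IDs. Promoter windows are RefSeq's and were matched for 37 of the 54 members, 9 of the 13 called.

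Genes were filtered with filterByExpr (minimum count 10), normalized by TMM, and frontal was compared with parietal-interparietal by edgeR's two-sided quasi-likelihood test (edgeR 4.0.16, R 4.3.3) on 2 residual degrees of freedom, with no covariate. SE is the log2 fold change over the square root of F; 95% intervals use the moderated degrees of freedom. The fit was tested on counts simulated with the same spread in both groups, which the pairs of these data, as given next, did not have. For genes with 200 to 2000 counts, the libraries of a pair varied more than binomial sampling gives. The factor was 8.94 in frontal and 3.36 in parietal-interparietal libraries. The pairs were therefore kept apart, except in the alternative that summed the parietal-interparietal pair. Even numbers made up 68.3% to 74.4% of counts from 1 to 20, so counts were also halved. The 2 factors and the floor of 3 counts used the counts as deposited, and the part of the even counts in them was not tested. The floor of 3 counts covers counting error only, and in the frontal group alone.

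Members and lists were chosen with earlier results of these data known. All members are accounted for; called members, the highest of each class per kilobase, and up to 4 called genes per direction of each further list are named, and others were chosen after their values were seen. Of the list entries, Znf503 and Drgx matched no symbol. Alternatives were other scalings, DESeq2 1.42.0, other filters, halved counts, a replicate block, the parietal-interparietal pair summed, and each library left out. Figures used matplotlib 3.10.9.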

Additional observations from a re-analysis of the deposited data

How the results depend on the processing

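Of the 13 called members none changed sign in the 12 alternatives where it was fitted (Bmp8a in 8), and 3 kept their call in all of them. The counts of 4 members higher and 9 lower were the same with DESeq2's size factors, with no filter, with a minimum count of 30 and with counts halved, but under the last 2 Bmp8a was not tested and Gdf10 was called lower (edgeR adjusted p = 0.0465 and 0.0497). With no scaling beyond the total count they were 4 and 11, and in DESeq2, which gave Bmp8a no adjusted p, 4 and 8. With that scaling 984 genes of the whole table were called higher and 1606 lower, against 1309 and 1348 with TMM. With the parietal-interparietal pair summed 0 members were called higher and 3 lower, and 791 of all genes against 2657. With 1 library left out, members called higher ranged from 0 to 8, members called lower from 3 to 15 and all genes called from 865 to 7279. The replicate block gave 4 members higher and 9 lower and 3306 genes in all. Deviations of same-numbered libraries correlated at 0.0179, and the labels do not say that numbers pair libraries.

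Of the 40 members not called, 18 changed sign and 16 were called in at least 1 alternative. With 1 library left out the log2 fold change ran from −0.12 to 0.056 for Tgfb2, from −0.063 to 0.18 for Bmpr1a, from −0.14 to 0.23 for Bmpr2 and from −0.26 to 0.16 for Ltbp4. The cause of these shifts was not tested. With 2 libraries a group and few counts, differences of Bmp8a, Gdf6, Gdf7, Chrdl2 and Fstl3 were poorly resolved at this depth.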
